A study of Mus musculus with 18 samples.

Results

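Interferon-induced genes were examined in the kidneys of mice exposed to chronic social defeat stress (CSDS). They were taken as the rows of the deposited table whose gene symbol was on a list of 40 genes, and all 40 were found among the 32675 genes listed. Kidney RNA was sequenced from 18 wild-type male C57BL/6 mice, 6 weeks old in the labels, with 6 mice in each group. The Ctrl group was not defeated, the PBS group (labelled StressPbs) was defeated by an aggressive mouse and injected with phosphate-buffered saline, and the FLX group (labelled StressFlx) was defeated and injected with fluoxetine, an antidepressant that blocks serotonin uptake. The study asked what defeat does to gene expression in the kidney and whether fluoxetine alters it. Whole kidney was measured, so fewer cells of a type and less RNA per cell cannot be told apart.

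Interferons are secreted proteins that cells release on sensing viral nucleic acid or other danger. Type I and type III interferons act on genes that carry the interferon-stimulated response element (ISRE), which a complex holding IRF9 binds, and interferon gamma acts on genes that carry the gamma-activated site (GAS). The genes they induce include sensors of nucleic acid, transcription factors that amplify the response, and effector proteins that block viruses and intracellular microbes, and most of them are active at a low level in unstimulated tissue.

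Promoters of 6 genes are shown because their levels carry the patterns described below. Isg15, Ifit1 and Ifit3 were highest in 1 Ctrl mouse, Irf1 and Igtp were highest in other mice, and Rsad2 separated the FLX from the PBS mice. Each line gives the 200 bases before the RefSeq start on GRCm38.p6, written 5′ to 3′ on the gene's strand. Capitals mark matches, on either strand, to an ISRE-like motif (GAAA, any 2 bases, GAAA) or a GAS-like motif (TTC, any 3 bases, GAA), which can overlap each other.
Isg15 (chr4:156200819-156201018, - strand): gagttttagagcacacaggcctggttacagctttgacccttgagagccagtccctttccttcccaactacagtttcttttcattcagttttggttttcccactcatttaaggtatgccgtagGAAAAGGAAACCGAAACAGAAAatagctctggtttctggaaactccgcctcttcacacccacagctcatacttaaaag
Ifit1 (chr19:34640689-34640888, + strand): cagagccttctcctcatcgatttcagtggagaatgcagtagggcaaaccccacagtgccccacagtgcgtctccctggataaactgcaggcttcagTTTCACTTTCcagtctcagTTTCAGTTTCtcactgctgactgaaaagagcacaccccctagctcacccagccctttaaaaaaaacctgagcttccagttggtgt
Ifit3 (chr19:34583329-34583528, + strand): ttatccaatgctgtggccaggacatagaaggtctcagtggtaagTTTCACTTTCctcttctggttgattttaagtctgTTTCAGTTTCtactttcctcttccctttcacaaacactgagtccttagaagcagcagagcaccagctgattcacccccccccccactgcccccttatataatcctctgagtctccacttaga
Rsad2 (chr12:26456453-26456652, - strand): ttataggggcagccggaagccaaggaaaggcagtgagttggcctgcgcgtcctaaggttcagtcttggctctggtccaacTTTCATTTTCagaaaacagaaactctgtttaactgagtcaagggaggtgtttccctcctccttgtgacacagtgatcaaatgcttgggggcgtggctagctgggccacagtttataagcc
Irf1 (chr11:53769814-53770013, + strand): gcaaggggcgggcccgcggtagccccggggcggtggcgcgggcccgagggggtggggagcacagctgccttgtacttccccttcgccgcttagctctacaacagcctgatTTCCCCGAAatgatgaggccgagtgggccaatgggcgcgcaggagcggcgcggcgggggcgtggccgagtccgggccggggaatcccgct
Igtp (chr11:58199356-58199555, + strand): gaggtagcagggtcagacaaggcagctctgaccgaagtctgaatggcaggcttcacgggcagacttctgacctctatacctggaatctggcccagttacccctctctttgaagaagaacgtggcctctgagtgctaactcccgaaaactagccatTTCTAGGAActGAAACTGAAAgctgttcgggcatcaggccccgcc

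In the Isg15 promoter, 3 overlapping ISRE-like matches ran from 78 to 57 bases before the start. Ifit1 held 2 ISRE-like matches, the first 104 bases before the start, and Ifit3 held 2, the first 156 bases before the start. The single ISRE-like match of Rsad2 began 120 bases before the start. Irf1 had a GAS-like match from 90 to 82 bases before the start, and Igtp had a GAS-like match beginning 45 bases and an ISRE-like match beginning 34 bases before it. RefSeq windows reaching from 250 bases before to 50 bases after a start were at hand for 30 of the 40 genes. An ISRE-like match was present in at least 1 window of 19 of these 30 genes and a GAS-like match in 9, with both in 5 and neither in 7. Over single windows, 57.1% of the 35 windows of these genes held the ISRE-like letters, against 3.44% of all 32851 windows, and 25.7% held the GAS-like letters, against 8.3% of all windows. All 5 GBP and IRG genes with a window held the ISRE-like letters, as did 3 of 4 IFIT genes. Irf7 and Cmpk2 held neither motif in this window. These matches describe the letters only.

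The level of a gene is given in FPKM, fragments per kilobase of transcript scaled to the size of the library, which can be compared between genes. Ifitm3, which encodes a membrane protein that blocks virus entry, had the highest mean over the 18 mice (62.5 FPKM). It was followed by Ifi27 (42.5), Bst2 (21.8), whose product tethers budding viruses, Ifit3 (11.7) and Igtp (11.6). The lowest means were those of Oas3 (0.0591 FPKM), Mx1 (0.287) and Mx2 (0.341). All 40 genes passed the filter on low counts and were tested among 19946 genes.

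The libraries differed in depth and in a few mice. Total counts were between 72149987 and 79061296 in 14 mice and between 48928823 and 52073640 in FLX replicates 3 to 6. Markers of kidney tubule and podocyte (10 genes) summed to 1959 to 2598 FPKM in every mouse. The study left out 1 PBS mouse that it did not name, and an earlier analysis of these data took it to be PBS replicate 6, so that counts are also given without that mouse. Summed levels of 7 neutrophil markers reached 65.3 FPKM in PBS replicate 6 and 6.85 to 25.4 in the other 5 PBS mice.

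**Figure D1:**
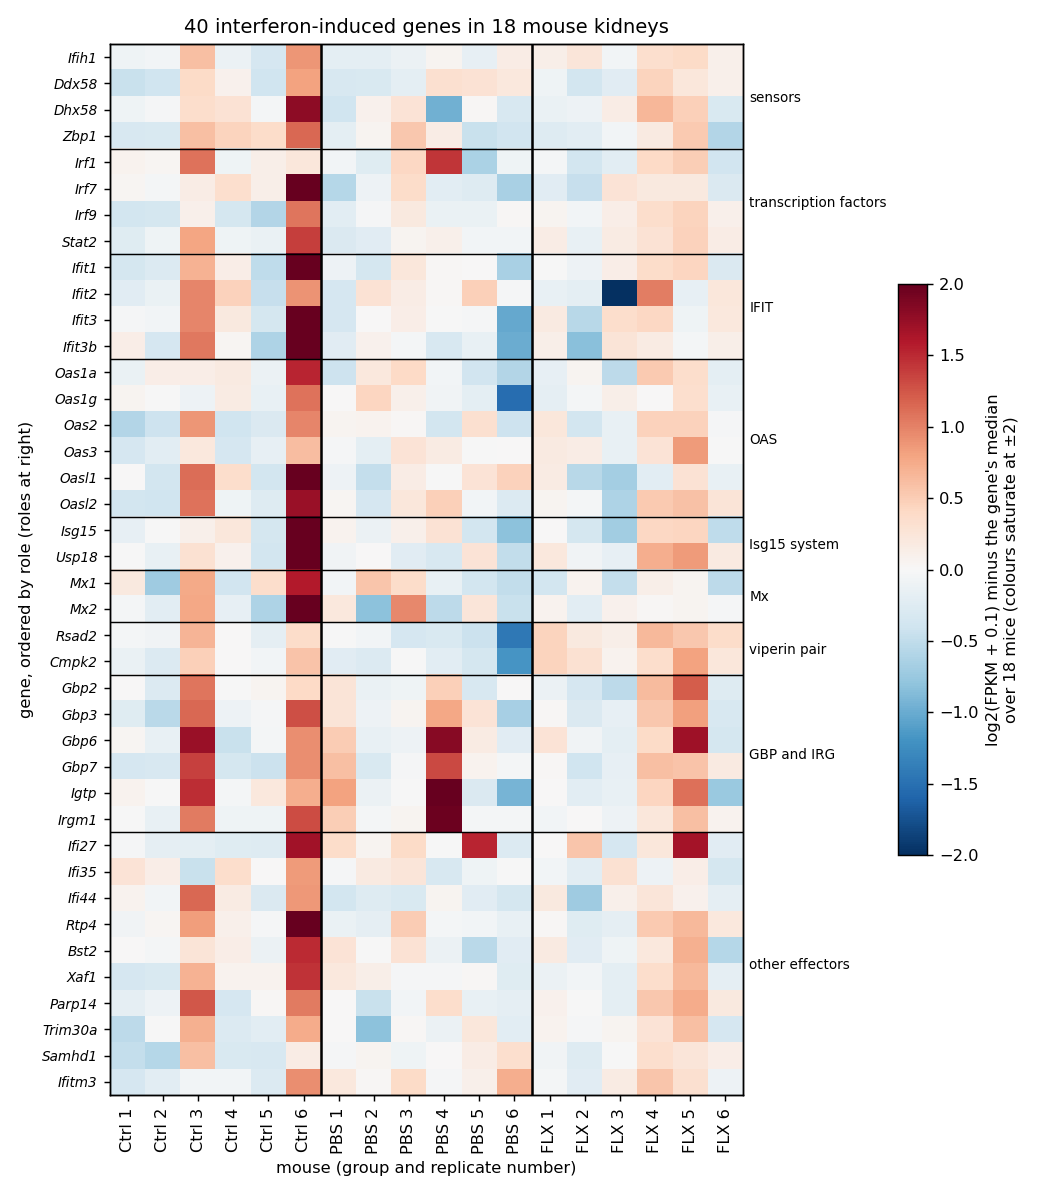
Heat map of the 40 interferon-induced genes (rows, grouped by role) in the 18 mice (columns, by group and replicate number). Colour gives log2(FPKM + 0.1) minus the gene's median over the 18 mice. Ctrl replicate 6 is the reddest column, with 27 of the 40 genes at their highest level of all mice.

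Ctrl replicate 6, a mouse of the undefeated group, stood apart from the others. All 40 genes were above their median over the 18 mice in this kidney, and 23 were more than 1 above it on the log2(FPKM + 0.1) scale. This mouse had the highest level of all 18 mice for 27 of the 40 genes (67.5%), whereas it had the highest level for 3.65% of all tested genes. Against the median of the other 5 Ctrl mice its level was over 2 times higher for 31 genes and over 4 times higher for 11, with a median ratio of 2.68.

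Transcription factors of the pathway showed this most clearly in Irf7, which amplifies the type I interferon response. Irf7 was at 34.4 FPKM in Ctrl replicate 6 and at 4.96 to 6.53 FPKM in the other 5 Ctrl mice, a ratio of 6.21 to their median. Irf9, which gives the complex that binds the ISRE its DNA contact, was at 7.55 FPKM in this mouse against 2.32 to 3.82 in the others. Stat2, which joins Irf9 in that complex, was at 7.23 FPKM against 2.27 to 4.77. Both lay above every other Ctrl mouse. Irf1, a factor known for its response to interferon gamma, was at 4.83 FPKM there and at 3.86 to 8.85 FPKM in the other 5, with its highest value in replicate 3.

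Among effectors, Isg15, a ubiquitin-like protein that is attached to other proteins, was at 29.5 FPKM in Ctrl replicate 6 and at 4.46 to 6.69 FPKM in the other 5 Ctrl mice. Usp18, the protease that removes Isg15 and dampens the receptor, was at 5.94 FPKM against 1.01 to 1.67. Ifit1, a protein that binds foreign RNA ends, was at 8.43 FPKM against 0.908 to 2.21, and Ifit3, its partner, at 44.4 FPKM against 7.39 to 18.7. For each of these 4 genes the value of Ctrl replicate 6 lay above all other 17 mice. Rtp4 (10.2 FPKM against 2.2 to 4.23) and Bst2 (54.6 FPKM against 17.8 to 23.1) followed the same order. Ctrl replicate 3 was next. In 33 of the 40 genes the 2 highest Ctrl mice were replicates 3 and 6, a pair that was highest for 17.2% of all tested genes.

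Markers of immune cells did not move together in Ctrl replicate 6. The 9 T and NK cell markers summed to 1.05 FPKM there and the 4 B cell markers to 0.61 FPKM, and both sums were the lowest of the 18 mice. The 7 macrophage markers summed to 60 FPKM against 50.3 to 57.8 in the other 5 Ctrl mice, and the 7 neutrophil markers to 3.2 FPKM against 1.18 to 1.83, so that both were the highest of the Ctrl group. Among all 18 mice this kidney ranked 6 from the top for macrophage and 9 for neutrophil markers. The 3 plasmacytoid dendritic cell markers summed to 0.946 FPKM, within the range of the other Ctrl mice (0.246 to 7.06). Of 20 interferon genes on the list of ligands, 7 were in the table, and in Ctrl replicate 6 Ifng was at 0.0337 FPKM and Ifnab, a type I interferon gene, at 0.0313, while the other 5 were listed at 0. Ifnab was listed at 0 in all other 17 mice, and Ifng was at 0 to 0.247 FPKM in the other 5 Ctrl mice. Other ligands had such lone values near 0 in other mice. Ifna2 (0.0286 FPKM) and Ifna5 (0.0639) had theirs in PBS replicate 5, Ifnb1 (0.0584) in FLX replicate 3 and Ifnk (0.103) in Ctrl replicate 3. The part of cell content in the high levels of this mouse was not tested.

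**Figure D2:**
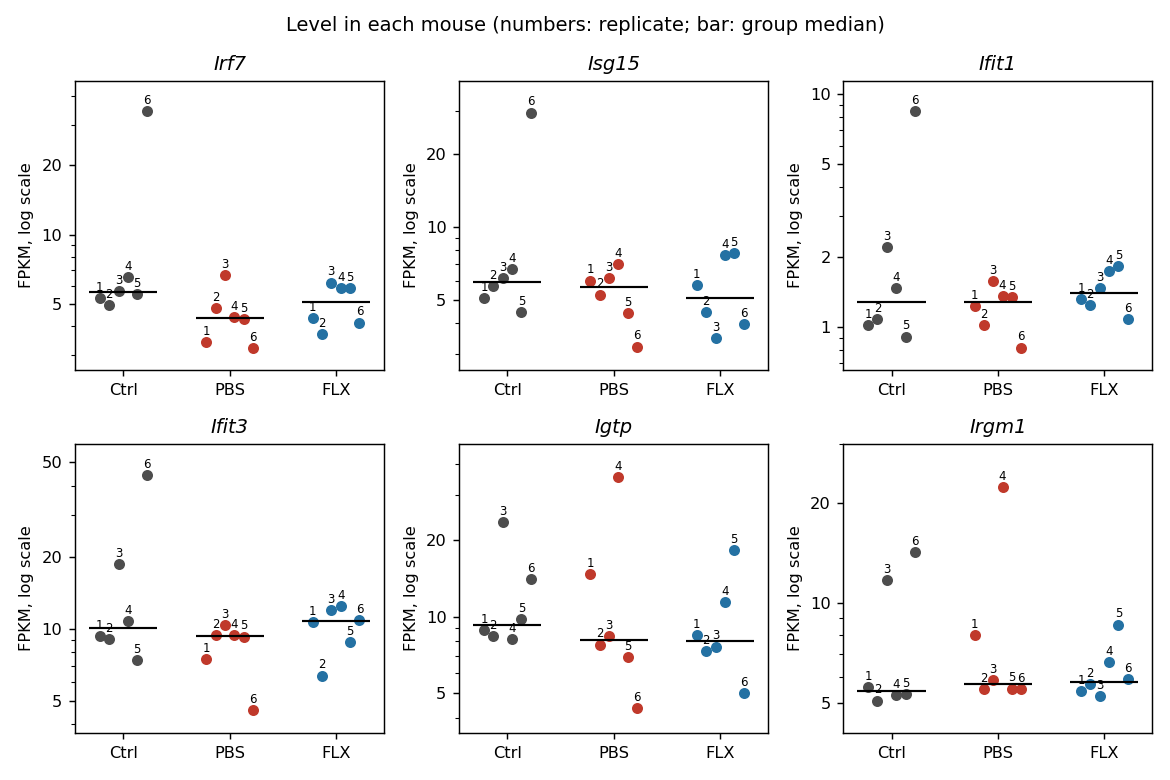
FPKM of 6 genes in each mouse on a log scale, with replicate numbers beside the points and bars at the group medians. Irf7, Isg15, Ifit1 and Ifit3 are highest in Ctrl replicate 6, while Igtp and Irgm1 are highest in PBS replicate 4.

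The first comparison asked what defeat with saline did. None of the 40 genes passed an adjusted p of 0.05 in PBS versus Ctrl with edgeR's quasi-likelihood test, whereas 4.28% of all 19946 tested genes did. At an unadjusted p under 0.05, 11 genes were lower in the PBS group (27.5% of the 40) and 0 were higher, and 9.19% of all tested genes were lower at that threshold. The median log2 fold change of the 40 genes was -0.44, against 0.00 over all genes tested, and 31 of the 40 were below 0. DESeq2 called 2 of 39 genes at an adjusted p under 0.05, both lower, Ifit3 (adjusted p = 0.0444) and Ifi44 (adjusted p = 0.0395), against 9.01% of all genes it gave an adjusted p. It gave no p for Irf7, and limma called 0 genes. The PBS and Ctrl groups overlapped for all 40 genes, while 2.75% of tested genes had groups that did not overlap.

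Most of these differences depended on Ctrl replicate 6. Without it, 2 genes were lower at an unadjusted p under 0.05 (8.24% of all tested genes) and 2 were higher (9.72% of all tested genes), and the median log2 fold change was -0.11. The 2 that were lower were Rsad2 and Ifi44, and the 2 that were higher were Irf9 and Ifitm3. Without PBS replicate 6 instead, 8 genes were lower (8.76% of all tested genes) and the median was -0.36. Without Ctrl replicate 1, 17 genes were lower, a fit for which the share of all tested genes is not reported here.

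**Figure D3:**
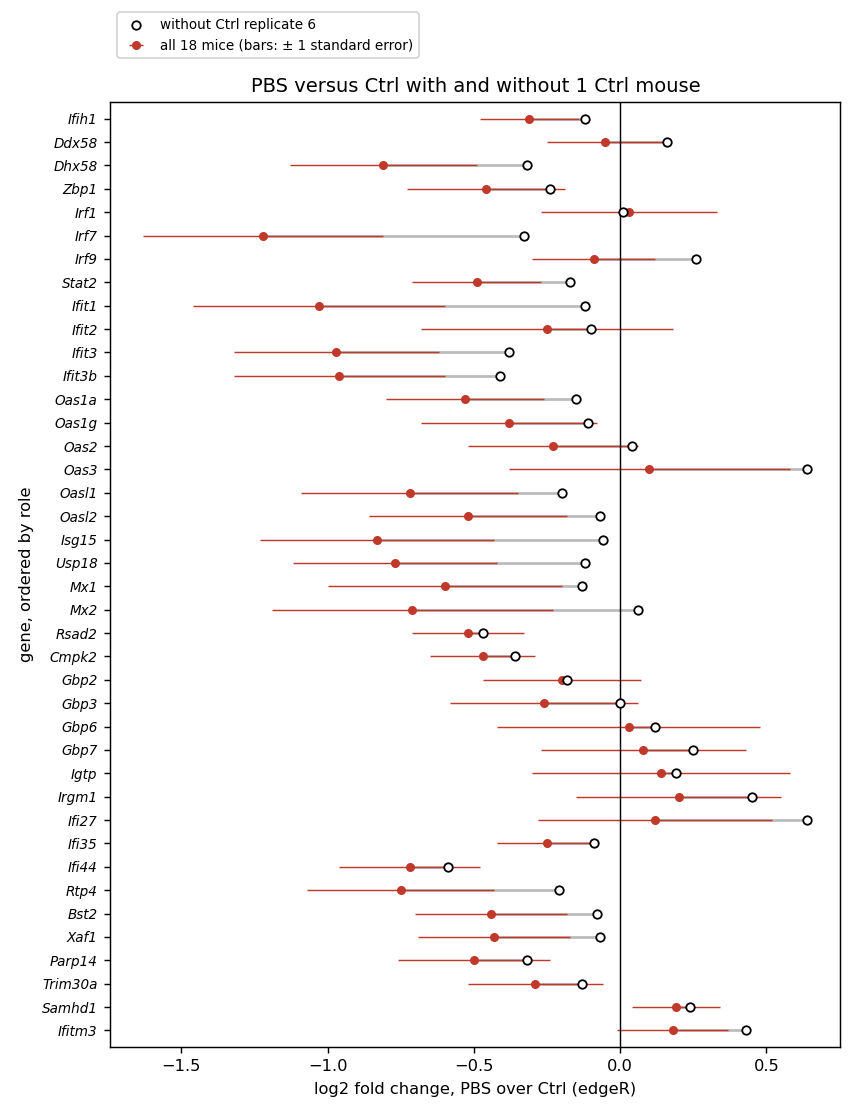
Log2 fold change of each of the 40 genes in PBS over Ctrl from edgeR, with all 18 mice (filled points, bars of ± 1 standard error) and without Ctrl replicate 6 (open points). The open points lie nearer to 0 for most genes, with Irf7 moving from -1.22 to -0.33.

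By role, Irf7 had the largest difference. It ranged from 4.96 to 34.4 FPKM in Ctrl (median 5.63) and from 3.23 to 6.66 FPKM in PBS (median 4.35). In 5 of 6 PBS mice Irf7 was below every Ctrl mouse, and PBS replicate 3 was within the Ctrl range. It gave a log2 fold change of -1.22 (standard error 0.41, edgeR adjusted p = 0.096), and one of -0.33 without Ctrl replicate 6 (edgeR adjusted p = 0.3). Stat2 ranged from 2.27 to 7.23 FPKM in Ctrl (median 2.55) and from 2.2 to 2.93 in PBS (median 2.61), and gave -0.49 (standard error 0.22) with all mice and -0.17 without that mouse. Irf9 (3.04 to 4.06 FPKM in PBS) gave -0.09 with all mice and 0.26 without Ctrl replicate 6. Irf1 (2.61 to 11.2 FPKM in PBS) gave 0.03.

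The 4 IFIT genes, whose products bind viral RNA, were all below 0, with log2 fold changes from -1.03 to -0.25. Ifit3 ranged from 7.39 to 44.4 FPKM in Ctrl (median 10) and from 4.57 to 10.4 FPKM in PBS (median 9.34). Only PBS replicate 6 was below every Ctrl mouse. Ifit3 gave -0.97 (standard error 0.35, edgeR adjusted p = 0.126) and -0.38 without Ctrl replicate 6. Ifit1, with medians of 1.28 FPKM in Ctrl and 1.29 in PBS and a highest PBS value of 1.57, gave -1.03 and then -0.12. Ifit3b (medians of 2.94 FPKM in Ctrl and 2.43 in PBS, highest values of 11.9 and 2.93) gave -0.96 and then -0.41, and it shares 27.4% of its 100-base stretches with Ifit3, which shares 31.7% of its own with Ifit3b, so that reads could be split between the 2 genes.

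In PBS, Isg15 ranged from 3.21 to 7.03 FPKM (median 5.64, against 5.93 in Ctrl) and Usp18 from 0.914 to 1.63 (median 1.19, against 1.37). Isg15 gave -0.83 (standard error 0.40) and Usp18 -0.77 (standard error 0.35), and without Ctrl replicate 6 these were -0.06 and -0.12. Of the 6 OAS genes, which make or resemble the enzymes that make the activator of RNase L, 5 were below 0 and none passed an unadjusted p of 0.05. Oasl1 had the lowest value (-0.72) and Oas3 the highest (0.10). Oas1a and Oas1g share 40.9% and 38.2% of their stretches with each other. Mx1 and Mx2, genes of the Mx GTPase family, gave -0.60 and -0.71, at levels of at most 0.947 and 1.44 FPKM in any mouse.

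Among the sensors, Dhx58 (LGP2), a helicase that tunes the other RNA sensors, ranged from 0.71 to 2.87 FPKM in Ctrl (median 0.845) and from 0.339 to 0.938 in PBS (median 0.676). It gave -0.81 (standard error 0.32), and -0.32 without Ctrl replicate 6. Ifih1 (MDA5), Ddx58 (RIG-I) and Zbp1, a sensor of left-handed nucleic acid, gave -0.31, -0.05 and -0.46. Among the other effectors, Rtp4, a chaperone of receptors, had PBS levels of 2.05 to 3.36 FPKM (median 2.18, against 2.44 in Ctrl) and gave -0.75, and -0.21 without Ctrl replicate 6. Ifi44, a cytoplasmic protein of the response, ranged from 0.488 to 1.49 FPKM in Ctrl (median 0.678) and from 0.457 to 0.648 FPKM in PBS (median 0.489). In 3 of 6 PBS mice Ifi44 was below every Ctrl mouse. It gave -0.72 (standard error 0.24, edgeR adjusted p = 0.096), and -0.59 without Ctrl replicate 6 (edgeR adjusted p = 0.198). Samhd1, which degrades nucleotides, and Ifitm3 were above 0 (0.19 and 0.18). Ifitm3 gave 0.43 without Ctrl replicate 6 and 0.08 without PBS replicate 6, which had 92.6 FPKM against 55.3 to 72.6 in the other PBS mice.

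Neutrophil markers moved with this comparison. Their summed level was 6.85 to 65.3 FPKM in PBS and 1.18 to 3.2 FPKM in Ctrl, and 4 of the 5 tested of 7 markers rose in PBS. Among them S100a8 gave 3.74 on the log2 scale (edgeR adjusted p = 0.0102). Ngp was listed at 0 in every Ctrl mouse. Lcn2, an injured tubule marker, rose with a log2 fold change of 3.07 (edgeR adjusted p = 0.0373) but gave 1.17 without PBS replicate 6 (edgeR adjusted p = 0.192). PBS replicate 6 was the lowest PBS mouse for 17 of the 40 interferon-induced genes. The part of these cells in the interferon-induced genes was not tested.

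The second comparison asked what fluoxetine did in defeated mice. None of the 40 genes passed an adjusted p of 0.05 in FLX versus PBS with edgeR, against 0.557% of all tested genes. At an unadjusted p under 0.05, 2 genes were higher in FLX (5% of the 40) and 0 were lower, while 5.77% of all tested genes were higher. The same 2 genes, Rsad2 and Cmpk2, passed that threshold without PBS replicate 6, when 5.76% of all tested genes were higher. DESeq2 called both of them, and no other of the 39 it tested, at an adjusted p under 0.05, against 3.05% of all genes it gave an adjusted p, and limma called 0 genes. They were also the 2 of 40 genes whose FLX and PBS groups did not overlap, while 2.04% of tested genes had groups that did not overlap. The median log2 fold change of the 40 genes was 0.05, against -0.01 over all genes tested, and 17 were below 0. Markers of other cells moved with this comparison. With edgeR, 4 of 5 neutrophil markers tested were lower in FLX at an unadjusted p under 0.05 (median log2 fold change -3.14, S100a8 with an adjusted p of 0.0275), as were all 4 red blood cell markers (median -2.50) and 2 of 3 injured tubule markers (median -1.63). The summed red blood cell markers were at 32.1 to 294 FPKM in FLX, 93.4 to 2125 in PBS and 38.6 to 771 in Ctrl, and the neutrophil markers at 0.317 to 5.29, 6.85 to 65.3 and 1.18 to 3.20. At an adjusted p under 0.05 DESeq2 called S100a8, S100a9 and Hbb-bt lower. Without PBS replicate 6 the counts were 3 neutrophil, 4 red blood cell and 0 injured tubule markers. Other lists moved less, with all mice. Endothelium had 2 of 6 markers higher at an unadjusted p under 0.05 (median 0.13). Of 8 tested T and NK cell markers, 0 were below 0 (median 0.43) and 0 passed that threshold. Of 10 kidney tubule and podocyte markers, 9 were below 0 (median -0.18) and 1 passed it. Macrophage markers had 1 of 7 higher, and monocyte markers had 1 of 4 higher and 1 lower. The part of any of these cells in Rsad2 and Cmpk2 was not tested.

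Rsad2 encodes viperin, an enzyme that makes a chain-terminating nucleotide and blocks many viruses, and Cmpk2 encodes a nucleotide kinase that provides its substrate. The genes lie side by side on chromosome 12, Rsad2 at 26442746 to 26456452 on the minus strand and Cmpk2 at 26469204 to 26479837 on the plus strand, with their 5′ ends 12752 bases apart. Rsad2 was at 4.79, 5.1, 5.73, 6.05, 6.44 and 7.0 FPKM in the FLX mice, in rising order, and at 1.57, 3.25, 3.5, 3.55, 4.24 and 4.41 FPKM in the PBS mice. Every FLX mouse was above every PBS mouse, and PBS replicate 6 was the lowest of all.

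The log2 fold change of Rsad2 in FLX over PBS was 0.68 (standard error 0.19, edgeR adjusted p = 0.114, DESeq2 adjusted p = 0.0293). Without PBS replicate 6 it was 0.53 (edgeR adjusted p = 0.0872). Cmpk2 was at 2.98 to 5.06 FPKM in FLX (median 3.59) and at 1.2 to 2.83 FPKM in PBS (median 2.37). Its log2 fold change was 0.65 (standard error 0.18, edgeR adjusted p = 0.114, DESeq2 adjusted p = 0.0287), and 0.52 without PBS replicate 6. The exact two-sided permutation test on log2(FPKM + 0.1) gave p = 0.00216 for each gene, the smallest that 6 mice against 6 can give and the value that any non-overlapping groups give. Leaving out 1 mouse at a time gave edgeR adjusted p values of 0.0819 to 0.204 for Rsad2 and 0.095 to 0.228 for Cmpk2.

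The Ctrl mice overlapped both groups. Rsad2 was at 3.89 to 7.17 FPKM in Ctrl (median 4.35) and Cmpk2 at 2.33 to 4.26 FPKM (median 2.79), and in both genes Ctrl replicates 3 and 6 were the highest Ctrl mice. Below the lowest Ctrl mouse lay 4 of the 6 PBS mice for Rsad2 and 3 for Cmpk2, and FLX replicate 5 was above the highest Ctrl mouse for Cmpk2. Set against Ctrl, the PBS mice gave -0.52 for Rsad2 (standard error 0.19, edgeR adjusted p = 0.135) and -0.47 for Cmpk2 (standard error 0.18, edgeR adjusted p = 0.155). In FLX versus Ctrl the genes gave 0.16 and 0.18. These comparisons share mice with the one above. Without Ctrl replicate 6 the PBS versus Ctrl values were -0.47 for Rsad2 and -0.36 for Cmpk2, against -0.33 for Irf7 and -0.06 for Isg15, a contrast between genes that was not tested.

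**Figure D4:**
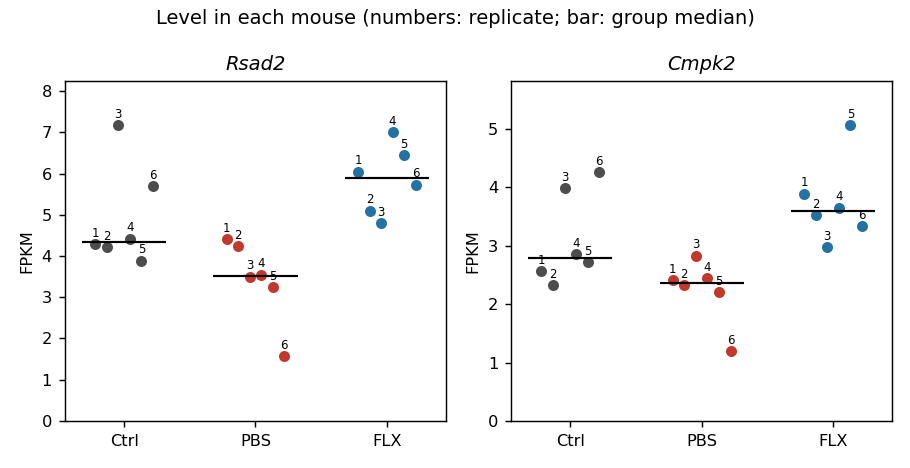
FPKM of Rsad2 and Cmpk2 in each mouse from 0, with replicate numbers beside the points and bars at the group medians. In both genes all 6 FLX mice are above all 6 PBS mice, and the Ctrl mice overlap each group in part.

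After Rsad2 and Cmpk2, the largest differences in FLX versus PBS were those of Irgm1 (-0.60, standard error 0.35), Igtp (-0.55, standard error 0.44) and Oas3 (0.45, standard error 0.48), with edgeR adjusted p values of 0.537, 0.689 and 0.778. Irgm1 and Igtp were both highest in PBS replicate 4, described below. Irf7 gave 0.09 and Isg15 -0.05, each with a standard error of 0.40. The FLX and PBS medians of Isg15 were 5.11 and 5.64 FPKM. Ifit2 gave -0.23 (standard error 0.43). Its level was 0.126 FPKM (28 counts) in FLX replicate 3 and 1.8 to 4.36 FPKM (425 to 1006 counts) in the other FLX mice. FLX replicates 3 to 6 were all libraries with lower totals, and replicates 4 to 6 had 425 to 1006 counts of Ifit2. The cause of the low value in replicate 3 was not tested.

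The third comparison set fluoxetine-treated defeated mice against undefeated mice. None of the 40 genes passed an adjusted p of 0.05 in FLX versus Ctrl with edgeR, DESeq2 or limma, against 1.77% of all tested genes with edgeR and 6.53% of those with a DESeq2 adjusted p. At an unadjusted p under 0.05, 9 genes were lower in FLX with edgeR (22.5% of the 40) and 0 were higher, while 8.81% of all tested genes were lower. They were Zbp1, Irf7, Ifit3, Ifit3b, Oasl1, Isg15, Mx1, Ifi35 and Ifi44. The groups overlapped for all 40 genes, against 3.44% of tested genes with groups that did not. The median log2 fold change was -0.37, and 34 of the 40 genes were below 0.

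Without Ctrl replicate 6, 0 genes were lower in edgeR (7.82% of all tested genes) and 2 were higher, Irf9 and Oas3 (8.09% of all tested genes), and the median was -0.07. The 9 genes became 5 without Ctrl replicate 3, 4 of them lower. Leaving out an FLX mouse gave 4 genes for replicate 1, 3 for replicate 2, 6 for replicate 3, 6 for replicate 4, 9 for replicate 5 and 2 for replicate 6, all lower. Without Ctrl replicate 2, and likewise without Ctrl replicate 5, 11 genes were lower. The shares of all tested genes in these fits are not reported here. Irf7 gave -1.13 (standard error 0.41, edgeR adjusted p = 0.156) and -0.25 without Ctrl replicate 6. Oasl1, a relative of the OAS enzymes that lacks their activity, ranged from 0.514 to 3.1 FPKM in Ctrl (median 0.806) and from 0.395 to 0.868 FPKM in FLX (median 0.599). Oasl1 gave -1.06 (standard error 0.37, edgeR adjusted p = 0.145) and -0.53 without that mouse. Mx1 (0.113 to 0.947 FPKM in Ctrl and 0.143 to 0.28 in FLX) gave -0.94 and then -0.47, and Isg15 (3.49 to 7.77 FPKM in FLX) gave -0.88 and then -0.12. Zbp1 ranged from 0.644 to 1.96 FPKM in Ctrl and from 0.519 to 1.24 in FLX, and gave -0.56. Ifi35, an interferon-induced leucine zipper protein, ranged from 7.89 to 19.6 FPKM in Ctrl and from 8.46 to 13.3 in FLX and gave -0.37. It was the only call when a mouse was left out, at -0.48 with an edgeR adjusted p of 0.037 without Ctrl replicate 3. Irf9 had FLX levels of 3.4 to 4.86 FPKM, and 5 of the Ctrl mice were at 2.32 to 3.82.

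The guanylate-binding proteins (GBP) and immunity-related GTPases (IRG), which attack the vacuoles of intracellular microbes and are known for their response to interferon gamma, followed another order of mice. Igtp was at 35.5 FPKM in PBS replicate 4, at 23.6 in Ctrl replicate 3, at 18.2 in FLX replicate 5 and at 14.7 FPKM in PBS replicate 1, and at 4.35 to 14 FPKM in the other 14 mice. Irgm1 was at 22.3 FPKM in PBS replicate 4 against 5.49 to 7.99 in the other PBS mice. Gbp6 was at 5.54 FPKM in PBS replicate 4, 5.18 in Ctrl replicate 3 and 5.06 in FLX replicate 5, but 82.9% of its 100-base stretches are shared with Gm43302. Gbp2 was highest in FLX replicate 5 (10.6 FPKM) and Ctrl replicate 3 (9.54 FPKM).

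All 6 GBP and IRG genes had their highest PBS level in replicate 4, against 7 of the other 34 genes. Only 2 of these 6 had their highest Ctrl level in replicate 6, against 28 of the other 34. Irf1 followed the GBP and IRG genes, at 11.2 FPKM in PBS replicate 4 against 2.61 to 5.47 in the other PBS mice. In PBS replicate 4 the median of the 6 GBP and IRG genes was 1.57 above their medians over all mice on the log2(FPKM + 0.1) scale, while the median of 14 IFIT, OAS, Isg15, Usp18 and Mx genes was -0.04. In Ctrl replicate 6 the 2 medians were 0.93 and 1.87. The 2 sets were drawn up from their roles, and the order of the mice is a description. In FLX, 28 of the 40 genes had replicates 4 and 5 as the 2 highest mice, a pair that was highest for 13.8% of all tested genes.

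**Figure D5:**
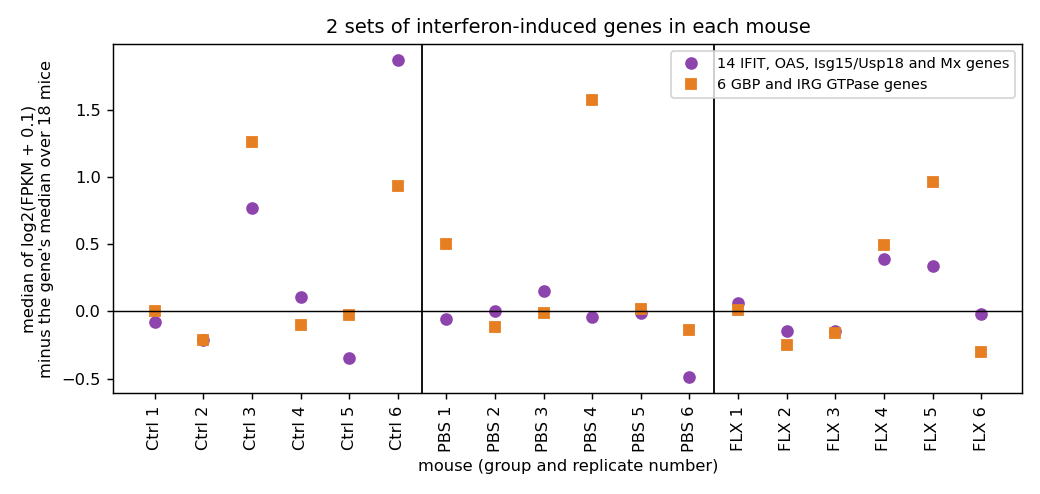
Median of log2(FPKM + 0.1) minus the gene's median over 18 mice, for 14 IFIT, OAS, Isg15, Usp18 and Mx genes (circles) and for 6 GBP and IRG genes (squares), in each mouse. The circle is highest in Ctrl replicate 6 (1.87), and the square in PBS replicate 4 (1.57).

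Between groups none of the 6 GBP and IRG genes was called at an adjusted p under 0.05. In PBS versus Ctrl their log2 fold changes lay between -0.26 and 0.20, in FLX versus Ctrl between -0.41 and -0.12, and in FLX versus PBS between -0.60 and 0.09, with 5 of the 6 below 0. No unadjusted p was under 0.05 in these comparisons. Ifng, the interferon gamma gene, was at 0.354 FPKM in FLX replicate 4 and 0.247 FPKM in Ctrl replicate 3, and it was listed at 0 in PBS replicate 4.

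Ifi27, a mitochondrial protein gene that is among the most strongly induced by interferon, followed neither order. It was at 101 FPKM in Ctrl replicate 6, 89.9 in PBS replicate 5 and 99.2 in FLX replicate 5, and at 24.7 to 46.2 FPKM in the other 15 mice. Markers of perirenal fat (4 genes, Ucp1 among them) were highest in 2 of these mice, with sums of 515 FPKM in PBS replicate 5 and 318 FPKM in FLX replicate 5, and they were at 56.1 FPKM in Ctrl replicate 6. Over the groups the sums were 0.443 to 56.1 FPKM in Ctrl, 1.75 to 515 in PBS and 4.41 to 318 in FLX, and 0 of the 4 markers passed an adjusted p of 0.05 in any comparison with edgeR or DESeq2. At an unadjusted p under 0.05, 1 was higher in PBS versus Ctrl and 1 in FLX versus Ctrl with edgeR. The part of fat in Ifi27 was not tested. Ifi27 gave 0.12 (standard error 0.40) in PBS versus Ctrl and 0.64 without Ctrl replicate 6.

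Other genes of the pathway were read from the same fit. In PBS versus Ctrl, edgeR called 4.28% of all genes it tested and DESeq2 called 9.01%. Of 6 receptor genes, edgeR called 1 higher and 0 lower in PBS versus Ctrl at an adjusted p under 0.05. DESeq2 also called 1 lower, Ifnlr1, a chain of the type III receptor. The gene called higher was Ifngr1, a chain of the interferon gamma receptor, with 9.07 to 11.1 FPKM in Ctrl, 12.4 to 22.7 in PBS and 10.9 to 13.4 in FLX. All 6 PBS mice were above every Ctrl mouse. Ifngr1 rose by 0.61 on the log2 scale (standard error 0.11, edgeR adjusted p = 0.00628), and the highest adjusted p with 1 mouse left out was 0.0191. In FLX versus PBS it gave -0.42 (edgeR adjusted p = 0.0967), and DESeq2 called it lower.

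Of 11 kinases and STAT or IRF factors, 2 rose and 1 fell in PBS versus Ctrl with edgeR, with the same 3 genes called by DESeq2. DESeq2 also called Stat3 and Irf2bp2 lower in FLX versus PBS and Irf5 lower in FLX versus Ctrl, which edgeR did not with all mice. Without PBS replicate 6, edgeR called Irf5 lower in FLX versus Ctrl (-0.73, edgeR adjusted p = 0.018, against 0.0712 with all mice). It did not call Irf5 there in 16 of the 18 fits with 1 mouse left out. Stat3, which carries cytokine signals such as that of interleukin 6, rose by 0.97 (edgeR adjusted p = 0.0254). Its level was 18.7 FPKM in PBS replicate 6 and 4.68 to 9.35 in the other PBS mice, and without that mouse it rose by 0.62 (edgeR adjusted p = 0.026). Irf2bp2, a corepressor, rose by 0.59 (edgeR adjusted p = 0.0391). Irf5, a factor that drives inflammatory cytokines, fell by 0.78 (adjusted p = 0.0351), from 5.29 to 7.01 FPKM in Ctrl to 1.75 to 5.36 FPKM in PBS. Each of these 3 calls was lost with at least 5 of the 18 mice left out in turn, with highest adjusted p values of 0.0617 without Ctrl replicate 2 for Stat3, 0.0997 without PBS replicate 1 for Irf2bp2 and 0.0861 without Ctrl replicate 5 for Irf5.

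Of 7 negative regulators, Socs3 rose and Nlrx1 fell in PBS versus Ctrl with both tools, and DESeq2 also called Socs3 lower in FLX versus PBS. Socs3, an inhibitor of cytokine receptors, gave 2.47 (edgeR adjusted p = 0.0253) with 23.8 FPKM as the highest PBS value, and 1.34 without PBS replicate 6 (edgeR adjusted p = 0.0693). Nlrx1, a mitochondrial inhibitor of antiviral signalling, gave -0.49 (edgeR adjusted p = 0.0302), and 0.0812 was the adjusted p without Ctrl replicate 5. Of 12 sensing and adaptor genes, edgeR called 1 in FLX versus Ctrl, where it called 1.77% of all tested genes. This was Traf3, an adaptor of interferon induction (0.45, edgeR adjusted p = 0.0471), whose call was lost with 14 of the 18 mice left out in turn (highest adjusted p 0.123, without Ctrl replicate 2). DESeq2 called Traf3 and Tbk1, a kinase of interferon induction, higher in FLX versus Ctrl. Without PBS replicate 6, edgeR also called Tbk1 there (edgeR adjusted p = 0.044, against 0.0955 with all mice), but not in 16 of the 18 fits with 1 mouse left out. In PBS versus Ctrl DESeq2 called Tbk1 higher and the DNA sensor Tlr9 lower, and in FLX versus PBS it called Tlr9 higher, while edgeR called 0 of the 12 in either. Tlr9 levels were near 0, at 0.0425 to 0.153 FPKM in Ctrl, 0 to 0.0392 in PBS and 0.0418 to 0.152 in FLX. Its edgeR adjusted p was 0.0835 in PBS versus Ctrl and 0.158 in FLX versus PBS. None of the 3 genes of Isg15 attachment passed the test with edgeR or DESeq2, and 1 had an unadjusted p under 0.05, in PBS versus Ctrl. In FLX versus Ctrl the largest difference among them was that of Ube2l6 (-0.45). Only Ifng of the ligands passed the filter on low counts, at -1.44 on the log2 scale (standard error 1.21) in PBS versus Ctrl.

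A further list of 60 interferon-induced genes outside the 40 gave 59 tested genes. In PBS versus Ctrl, edgeR called 3 lower and 0 higher, against 4.28% of all tested genes called in either direction. DESeq2 called 4 lower and 1 higher, against 9.01% of genes, adding Mov10 (lower) and Ifi207 (higher). With edgeR, 8 were lower and 1 was higher at an unadjusted p under 0.05. At that threshold 9.19% of all tested genes were lower. The median log2 fold change was -0.25, which was -0.10 without Ctrl replicate 6. Tnfsf10, a ligand that triggers cell death, fell from 5.51 to 14.1 FPKM in Ctrl to 1.02 to 4.97 FPKM in PBS, with no overlap between the groups. Tnfsf10 fell by 1.18 on the log2 scale (standard error 0.27, edgeR adjusted p = 0.0188), with an adjusted p of at most 0.0424 when 1 mouse was left out. Ly6e, a surface protein gene, gave -0.48 (edgeR adjusted p = 0.0213), and this call was lost with 3 of the mice left out in turn (highest adjusted p 0.0531, without Ctrl replicate 5). Parp10, an ADP-ribosyltransferase, gave -0.29 (edgeR adjusted p = 0.0494) in PBS versus Ctrl, a call lost with 14 of the mice left out in turn (highest adjusted p 0.109, without Ctrl replicate 5). In FLX versus Ctrl, Parp10 gave -0.52 (standard error 0.08, edgeR adjusted p = 0.00508), with at most 0.0195 when 1 mouse was left out. DESeq2 called Parp10, Oas1c and Trim12c lower in that comparison, and without PBS replicate 6 edgeR called Parp10, Trim12c and Tnfsf10 lower. Parp10 levels were 6.99 to 8.86 FPKM in Ctrl, 5.29 to 7.58 in PBS and 5.32 to 6.76 in FLX. In FLX versus PBS, 0 of the 59 passed the test in edgeR and 0 in DESeq2, and the median was 0.03. With edgeR, 3 were higher and 1 was lower at an unadjusted p under 0.05, while 5.77% of all tested genes were higher.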

How the data were processed

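Poly(A) RNA of right kidneys was sequenced in 18 mice from libraries made with strand marking. By the paper's methods, reads were trimmed by the authors with fastp, mapped with HISAT-3N on the GRCm38 genome, and built into transcripts by StringTie, while the submitters' processing notes list cutadapt 1.9, HISAT2 2.0.4 and StringTie 1.3.4d. The deposited table gives each gene in each mouse an estimated count and an FPKM level, both made by the authors. For the counting tool, no name was given in the sources used here. Counts were whole, yet per mouse the value 4 was held by a median of 720 genes and the value 3 by 484.5. Groups came from the labels.

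Counts were tested with edgeR 4.0.16 (TMM scaling, filterByExpr, quasi-likelihood test, 3 groups in 1 fit, two-sided) with Benjamini-Hochberg adjustment over 19946 genes. DESeq2 1.42.0 and limma 3.58.1 on log2(FPKM + 0.1) were alternatives, and each mouse was left out in turn. The edgeR, DESeq2 and limma code was tested on simulated data. In a simulated PBS against Ctrl contrast over 19946 genes, edgeR recovered 59% of the 100 genes whose log2 change was 1. DESeq2 recovered 69% of them. Of the genes simulated without a change, edgeR called 10 and DESeq2 called 37, so calls made by DESeq2 alone are less certain. Single genes with groups that did not overlap were given an exact permutation test (scipy 1.17.1). The labels do not say whether mice shared litters or days, and the tests treat the mice as independent.

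Every one of the 40 genes is accounted for by counts. Those given values are genes at an unadjusted p under 0.05 in a comparison with no call, the 5 with the largest absolute log2 fold change per comparison, the 5 highest and 3 lowest in mean FPKM, and Irf1, Irf7, Irf9 and Stat2. Genes named for standing out in 1 mouse, or as the nearest relatives of those, were chosen after their values were seen. The 40 genes and all lists were chosen with earlier results of these data known. Of 20 ligand genes, 13 were not analysed here, and 1 gene of the pathway lists is not reported here. Shared 100-base stretches were counted on GENCODE M21 transcripts. Promoter windows are from RefSeq (GRCm38.p6), and their starts lay within 22 bases of the deposited gene ends for the 6 shown. No window was used for Dhx58, Zbp1, Oas2, Usp18, Mx1, Mx2, Gbp6, Ifi27, Rtp4 and Parp14.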

Additional observations from a re-analysis of the deposited data

Results flagged for a closer look

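Single mice lay far from the other 5 of their group, by the gap to the nearest mouse as a share of the group's range, in 26 of 120 gene and group combinations. This share, taken on FPKM without a log scale, had to exceed Dixon's critical value for 6 mice. Chance gives such a share in about 1 of 20 groups only where values follow a normal distribution, which was not tested for FPKM. Without a log scale a high mouse is flagged more readily than a low one. The combinations come from the same mice and from genes that rose together, so they are not independent. Ctrl replicate 6 was the highest in 14 of the 26 combinations. The shares were 0.947 for Irf7, 0.938 for Ifi27, 0.911 for Isg15, 0.886 for Oas1a, 0.867 for Dhx58, 0.866 for Usp18, 0.857 for Bst2, 0.847 for Ifitm3, 0.827 for Ifit1, 0.822 for Oas1g, 0.749 for Rtp4, 0.713 for Irf9, 0.699 for Mx2 and 0.695 for Ifit3.

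PBS replicate 4 was the highest PBS mouse with shares of 0.851 for Irgm1, 0.787 for Gbp6, 0.693 for Ifi44, 0.667 for Igtp and 0.667 for Irf1. Ctrl replicate 3 was the highest Ctrl mouse for Irf1 (0.806). FLX replicate 5 was the highest FLX mouse for Gbp6 (0.784), Ifi27 (0.712) and Oas3 (0.657). PBS replicate 5 was the highest PBS mouse for Ifi27 (0.766) and PBS replicate 3 for Rtp4 (0.831). FLX replicate 2 was the lowest FLX mouse for Ifit3b (0.654).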

How the results depend on the processing

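In PBS versus Ctrl, 0 genes passed an adjusted p of 0.05 in edgeR, 2 did in DESeq2, and 2 passed the study's threshold of an absolute log2 fold change over 1 with an unadjusted p under 0.05. Both were lower, and 0 genes passed the study's threshold without Ctrl replicate 6. The share of all tested genes is not reported here for the study's threshold or for the alternative settings below, so these counts cannot be set against it. The 11 genes at an unadjusted p under 0.05 became 4 with limma on log2(FPKM + 0.1), with a pseudocount of 1 or 0.01 and without its filter on low values. They became 7 with only the 2 groups in the fit. With either direction counted, 5 genes passed with Ctrl replicate 6 and PBS replicate 6 both left out (an alternative chosen after seeing the data), of which 2 were lower and 3 higher, and 4 to 17 with 1 mouse left out, the 4 being 2 lower and 2 higher without Ctrl replicate 6. The median log2 fold change was -0.03 with both mice left out and -0.53 to -0.11 with 1 left out. In FLX versus PBS, 0 genes passed in edgeR and 2 in DESeq2, and 2 had an unadjusted p under 0.05 (2 to 3 with 1 mouse left out). In FLX versus Ctrl, 0 genes passed in edgeR, 0 to 1 with 1 mouse left out, and 2 passed the study's threshold, both lower. Without Ctrl replicate 6, 0 lower genes and 1 higher gene passed the study's threshold. The 9 genes at an unadjusted p under 0.05 became 0 with all limma settings and with FLX replicates 1 and 2 only, 1 with FLX replicates 3 to 6 only and 3 with only the 2 groups in the fit. With either direction counted, 4 genes passed with Ctrl replicate 6 and PBS replicate 6 both left out, all higher, and 2 to 11 with 1 mouse left out, with 2 higher and 0 lower without Ctrl replicate 6. The cause of these moves was not tested.

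Equal replicate numbers did not pair the mice: correlations of their deviations lay between -0.2294 and 0.2306. With the replicate block, 3 genes in PBS versus Ctrl and 2 in FLX versus Ctrl had an unadjusted p under 0.05. Of 22 differences of single genes at an unadjusted p under 0.05, none changed direction under any setting run, but some came close to 0. In PBS versus Ctrl the value nearest to 0 was -0.02 for Ifit1 and -0.04 for Usp18. DESeq2 brought Ifit3 (-0.96) and Ifi44 (-0.71) in PBS versus Ctrl and Rsad2 (0.67) and Cmpk2 (0.65) in FLX versus PBS under an adjusted p of 0.05. FLX replicates 3 to 6 had lower totals, which limits precision for genes of low level such as Oas3 and Mx1.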
